A study of Mus musculus with 16 samples.

Results

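Toll-like receptors, the co-receptor Cd14 and the adaptor Myd88 were followed in brown adipose tissue (BAT) and gonadal white adipose tissue (gWAT) of mice lacking phosphoglycerate mutase 1 in fat. The members were Tlr1, Tlr2, Tlr3, Tlr4, Tlr6, Tlr7, Tlr8, Tlr13, Cd14 and Myd88, matched by the RefSeq name of their array probes. These 10 genes had 17 probes, among 22907 named genes on an array of 56605 probes. Each gene was represented by the probe that was brightest on average over the 16 arrays.

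The knockout animals were Adipoq-Cre+: Pgam1 flox/flox (Adipo-Pgam1 KO) mice, and the controls were their Adipoq-Cre-: Pgam1 flox/flox littermates, so that every animal carried the floxed alleles. The adiponectin promoter that drives this Cre is active in adipocytes, and the arrays measured whole tissue with all its cell types. All mice were males with the strain given as C57BL/6NCrSlc, while the methods describe a Cre line on C57BL/6J crossed to a floxed line on C57BL/6. They were 16 weeks old except replicate 4 of both knockout groups, which was 14 weeks old. Each of the 4 groups (BAT control, BAT Adipo-Pgam1 KO, gWAT control, gWAT Adipo-Pgam1 KO) had 4 one-colour arrays. The labels did not say whether equal numbers in BAT and gWAT marked the same mouse.

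Toll-like receptors are membrane proteins of innate immunity that bind microbial lipids, proteins and nucleic acids. Tlr2 pairs with Tlr1 or Tlr6 at the cell surface to bind lipopeptides, Tlr4 binds lipopolysaccharide with the help of Cd14, and Tlr3, Tlr7, Tlr8 and Tlr13 meet RNA in endosomes. All of them except Tlr3 signal through Myd88 to NF-kB and to inflammatory genes, and in adipose tissue macrophages are a main source of most of them, while adipocytes carry some, including Tlr4.

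Levels are given as log2 of the processed signal over the array's 75th percentile, so that 0 is the 75th percentile of that array, and levels of different probes were not set against each other. The 75th percentile ranged from 401 to 916 intensity units. In BAT it was 401 to 451 on control arrays and 650 to 916 on knockout arrays. Up to 62.2% of probes per array were well above background by the scanner software's flag. The lowest level so flagged was -4.36 to -3.74 on BAT controls and -5.04 to -4.05 on BAT knockouts. The detection floor was therefore mostly higher on the BAT controls, which bears on dim genes not detected there. A gene entered a test when at least 1 of the groups compared had its probe detected in this way on each of its 4 arrays, with limma and adjustment over all genes tested. Tlr8 did not pass in any comparison, and the other 9 members passed in all of them.

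Pgam1 in BAT of Adipo-Pgam1 KO mice changed by -1.74 ± 0.11 (log2 change ± SE, adjusted p = 1.11e-05), with no overlap of the groups. In gWAT the 4 arrays labelled Adipo-Pgam1 KO had more Pgam1 signal than the controls, by 0.95 ± 0.19 (adjusted p = 0.0140), which goes against the label. With slide as a block this difference was 0.75 and did not pass (adjusted p = 0.248). Directions given for gWAT therefore rest on the label. Of 3 brown adipocyte markers tested in gWAT, Cidea (3.41 ± 0.33) and Elovl3 (4.35 ± 1.0) were higher on the labelled knockout arrays. Ucp1, the uncoupling protein that defines brown adipocytes, was well above background on all BAT arrays, on none of the gWAT control arrays and on 3 of the 4 gWAT arrays labelled Adipo-Pgam1 KO. Skeletal muscle markers stood out on BAT knockout arrays 1 and 3, with mean log2 levels of 3.82 and 1.40 against -2.70 to -1.91 on the control arrays. The count of members called in BAT was 8 with array 1 left out and 8 with array 3 left out. Leaving out both together was not tried. Of the other adipocyte markers (Adipoq, Plin1, Cidec, Fabp4, Lep), 5 of 5 were well above background on every array.

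The arrays lay on 3 slides. BAT controls 1 to 3 were on slide 1, and slide 2 held BAT control 4, all BAT knockouts and gWAT controls 1 to 3. Slide 3, scanned on another day, held gWAT control 4 and the 4 gWAT knockouts. Slide and genotype therefore overlapped only through 1 control array in each tissue, and values with slide as a block are given where they changed a call.

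Tlr1 and Tlr6 lie next to each other on mouse chromosome 5, 19.5 kb apart (GRCm38), and Tlr8 and Tlr7 lie 39.0 kb apart on chromosome X. Promoter windows from RefSeq (GRCm38.p6, 250 bases before to 50 after a transcript start) were taken for 7 of the 10 members, in 9 windows. None was at hand for Tlr4 or Tlr7, and Cd14 was left out of this set by choice. The windows were searched on both strands for the kappa-enhancer and the palindromic motif of NF-kB, the PU.1 motif GAGGAAGT and the interferon-stimulated response element (ISRE). The 250 bases before the start are shown for the 4 genes with a match, all on the minus strand and written 5′ to 3′ as transcribed, with matched bases in capitals. They are Tlr2 (chr3:83841609-83841858), Tlr1 (chr5:64933559-64933808), Tlr6 (chr5:64959167-64959416) and Myd88 (chr9:119340019-119340268).
Tlr2: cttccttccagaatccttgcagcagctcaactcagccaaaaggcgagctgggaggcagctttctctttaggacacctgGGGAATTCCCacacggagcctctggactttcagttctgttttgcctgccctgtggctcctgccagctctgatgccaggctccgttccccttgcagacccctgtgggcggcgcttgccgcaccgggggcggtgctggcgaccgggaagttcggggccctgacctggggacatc
Tlr1: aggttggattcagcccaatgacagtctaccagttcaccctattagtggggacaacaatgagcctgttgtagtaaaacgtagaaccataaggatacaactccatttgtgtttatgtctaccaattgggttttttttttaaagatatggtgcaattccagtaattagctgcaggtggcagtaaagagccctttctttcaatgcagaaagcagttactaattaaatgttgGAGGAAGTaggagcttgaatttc
Tlr6: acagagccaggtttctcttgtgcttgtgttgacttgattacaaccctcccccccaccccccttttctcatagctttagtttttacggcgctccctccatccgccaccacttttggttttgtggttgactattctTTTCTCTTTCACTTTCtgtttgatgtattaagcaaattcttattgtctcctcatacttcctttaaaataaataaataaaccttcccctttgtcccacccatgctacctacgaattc
Myd88: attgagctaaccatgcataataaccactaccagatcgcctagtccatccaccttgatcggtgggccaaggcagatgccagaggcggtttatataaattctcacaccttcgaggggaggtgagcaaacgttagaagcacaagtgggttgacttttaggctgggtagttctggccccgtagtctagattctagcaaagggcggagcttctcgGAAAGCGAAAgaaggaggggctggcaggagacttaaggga

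The Tlr2 window held the palindromic NF-kB motif, starting at base -172 from the transcript start, which 0.0396% of 32851 RefSeq promoter windows share. The Tlr1 window held GAGGAAGT at -23 (3.20% of windows). The ISRE was found as overlapping matches on the other strand in Tlr6, at -116 and -110, and at -40 in Myd88 (3.44% of windows). The kappa-enhancer motif, present in 0.155% of windows, was in no member's window. No match was found in the windows of Tlr3, Tlr8 and Tlr13 or in the second windows of Tlr1 and Tlr6, so that genes with and without a match were among those that rose in BAT. These letter matches are descriptions and were not tested for binding.

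In BAT, 8 of the 9 tested members rose in Adipo-Pgam1 KO mice, 0 fell, and only Myd88 did not pass the test. Tlr1, Tlr3 and Tlr6 passed the detection filter only through the knockout arrays, Tlr3 being dim there too and detected on 3 of the 4 control arrays. For these genes a fall could hardly have been called, so the count of rises is no test of direction. Across all 14252 genes tested in BAT, 61.4% were called in either direction and 27.5% were called higher. The median log2 change of the 9 members was 1.96, against -0.080 over all genes tested. The groups did not overlap for 8 of the 9 members, as for 57.1% of all genes tested. Scaled to Actb and Rplp0, 7 were called, 6 of them higher. Under that scaling 10794 of the 14252 genes were called, and 17.7% of these calls were higher. The plot of levels on each array shows the increases member by member.

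**Figure D1:**
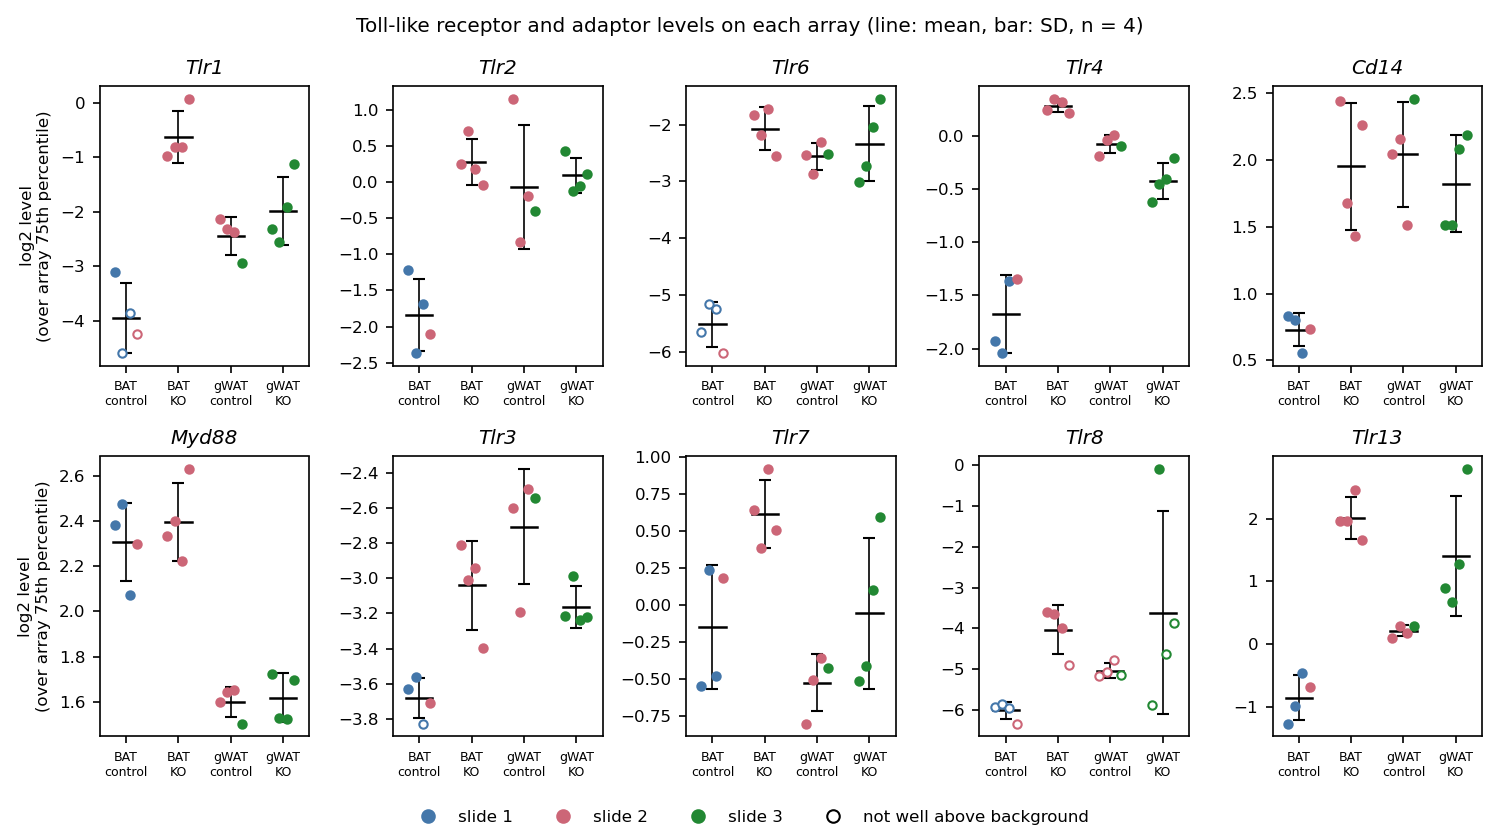
Each panel plots the log2 level of a member (its brightest probe, over the array's 75th percentile) on the 4 arrays of each group, with lines for means and bars for SD; colours give the slide, and open points were not well above background. BAT control arrays are the lowest group for every member except Tlr7 and Myd88, and Tlr6 and Tlr8 were not well above background on any of them.

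Among the lipopeptide receptors, Tlr2, the common partner, was at -1.21, -2.37, -1.68 and -2.10 on BAT control arrays 1 to 4 and at 0.25, 0.72, 0.18 and -0.035 on the knockout arrays. Every knockout array lay above every control array, and the change was 2.12 ± 0.26 (4.35-fold, adjusted p = 1.65e-04).

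Tlr1 read -3.10, -4.59, -3.85 and -4.23 in the controls, where only array 1 was well above background, and -0.96, -0.80, -0.80 and 0.078 in the knockouts. The fitted rise of 3.32 ± 0.34 (adjusted p = 6.74e-05) rests on control signals mostly in the background range, and with normexp background correction it was 1.996. Its second, dimmer probe gave 2.67 ± 0.35 (adjusted p = 2.11e-04), and the high reading of knockout array 4 at the first probe was not seen at the second, where that array was the lowest knockout at -1.53.

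Tlr6 was not well above background on any BAT control array, where it read -5.65, -5.15, -5.24 and -6.02, and was so on all knockout arrays, at -1.83, -2.19, -1.73 and -2.56. Against the detection floor of the control arrays it was at least 3.71-fold higher in the knockouts, a bound that was not tested. The fitted change of 3.44 ± 0.24 (adjusted p = 1.37e-05) depends on signals in the background range, and with normexp background correction it was 1.40.

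Tlr4, the lipopolysaccharide receptor, read -1.93, -2.04, -1.37 and -1.35 in BAT controls and 0.25, 0.35, 0.32 and 0.22 in the knockouts. The knockout values lay close together (SD 0.062) and all above the controls. The change was 1.96 ± 0.17 (3.89-fold, adjusted p = 3.31e-05). The dimmer probe, which was not well above background on any control array, was at least 1.64-fold higher (adjusted p = 2.88e-05 for the fitted change, not for this bound).

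Cd14, which hands lipopolysaccharide to Tlr4, read 0.84, 0.80, 0.56 and 0.73 in controls and 2.44, 1.67, 1.43 and 2.26 in knockouts. The groups did not overlap, with a change of 1.22 ± 0.22 (2.33-fold, adjusted p = 0.00134) at the brightest probe and 0.96 ± 0.23 (adjusted p = 0.00642) at the other. Within slide 2 alone, with 1 control array, the change was again 1.22 but did not pass (adjusted p = 0.0573).

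Among the endosomal receptors, Tlr13, a sensor of bacterial ribosomal RNA, read -1.27, -0.99, -0.47 and -0.68 in BAT controls and 1.96, 1.97, 2.46 and 1.66 in knockouts. All knockout arrays were above the 75th percentile and all controls below it, and the rise was 2.86 ± 0.22 (7.27-fold, adjusted p = 1.82e-05). The dimmer Tlr13 probe gave 2.92 ± 0.15 (adjusted p = 4.63e-06), at least 4.06-fold since it was not well above background on any control array.

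Tlr7, which binds single-stranded RNA, gave different sizes by probe. At the brightest probe the controls read -0.55, 0.24, -0.47 and 0.19 and the knockouts 0.64, 0.39, 0.92 and 0.51, a change of 0.76 ± 0.21 (1.70-fold, adjusted p = 0.0128). A second probe, well above background on all 16 arrays, read -3.05 to -2.30 in controls and -0.25 to 0.54 in knockouts, a change of 2.65 ± 0.22 (6.26-fold, adjusted p = 2.15e-05). The third probe was not well above background on any array. Both measured probes separated the groups, but with slide as a block the change at the brightest probe was 0.43 and did not pass (adjusted p = 0.300), nor did it when scaled to Actb and Rplp0 (0.17, adjusted p = 0.515).

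Tlr3, the receptor for double-stranded RNA, was dim. The controls read -3.63, -3.56, -3.83 and -3.71, with array 3 not well above background, and the knockouts -2.81, -3.01, -2.94 and -3.40. The groups did not overlap and the change was 0.64 ± 0.14 (1.56-fold, adjusted p = 0.00359). A dimmer probe, above background on 0 of 4 control and 3 of 4 knockout arrays, was at least 1.32-fold higher and was not tested. At the brightest probe the gene lost its call with normexp background correction (0.26, adjusted p = 0.0959), when scaled to Actb and Rplp0 (0.053, adjusted p = 0.801) and within slide 2 (0.67, adjusted p = 0.0781).

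Tlr8, the neighbour of Tlr7, was not well above background on any BAT control array (-5.92, -5.85, -5.95 and -6.34) and was so on knockout arrays 1 to 3 (-3.60, -3.64 and -3.99) but not on array 4 (-4.90). The groups did not overlap, and a two-sided exact permutation test over the 8 arrays gave p = 0.0286, the smallest that 4 against 4 allows. No fold is given, because the knockout mean did not exceed the detection floor of the control arrays.

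Myd88, the adaptor of all the receptors here except Tlr3, read 2.38, 2.47, 2.07 and 2.30 in BAT controls and 2.33, 2.40, 2.22 and 2.63 in knockouts, with the groups overlapping. The difference was 0.090 ± 0.13 (adjusted p = 0.561, 95% interval -0.20 to 0.38). Its sign and call moved with the scaling, from -0.50 (adjusted p = 0.00841) relative to Actb and Rplp0, where the median of all genes moved to -0.67, to 0.63 (adjusted p = 0.00345) relative to spike-in spots, where that median was 0.46.

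**Figure D2:**
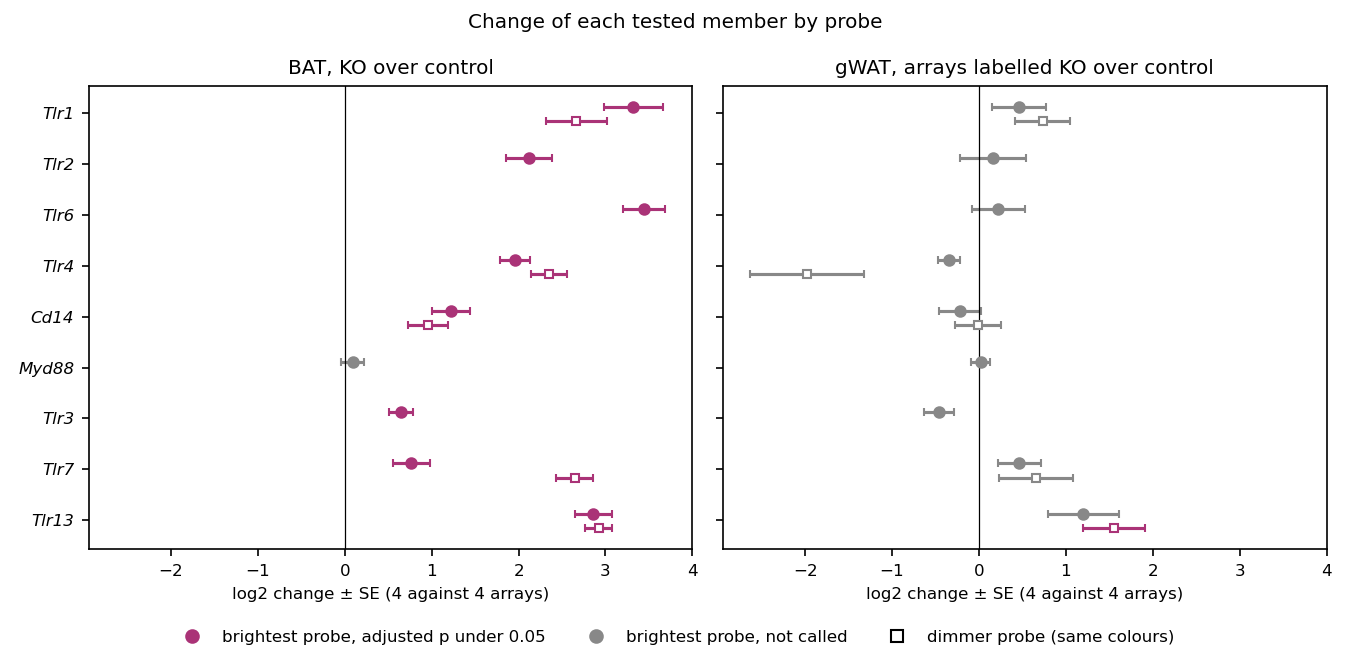
Points give the log2 change with its SE in BAT and in gWAT for the 9 tested members, circles for the brightest probe and squares for dimmer probes that were tested, coloured where the adjusted p was under 0.05. In BAT every point lies right of 0 and all but that of Myd88 (0.090) are called, while in gWAT only the dimmer Tlr13 probe is called, at 1.56.

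Markers of macrophages, which carry many of these receptors, moved in the same arrays. Of 9 macrophage markers, all well above background on all arrays, 7 rose in BAT of Adipo-Pgam1 KO mice and 0 fell, with a median log2 change of 2.84. Adgre1, the F4/80 antigen, rose by 2.84 ± 0.25 and Cd68, a lysosomal glycoprotein of macrophages, by 3.07 ± 0.35, while Itgam (0.14) and Mertk (0.36) did not pass. Their summed level was 28.4 to 40.3 times the array's 75th percentile in controls and 96.0 to 143 times in knockouts. Ptprc, the pan-leukocyte antigen CD45, rose by 2.82 ± 0.21, 5 of 5 adipocyte markers fell, and 3 of 3 fibroblast and progenitor markers rose. Markers of other leukocytes were mixed. Of 4 neutrophil markers tested 0 rose and 1 (Csf3r) fell, and of 4 dendritic cell markers 2 rose and 2 fell. Of 3 T cell markers 1 rose and 0 fell, and the 1 B cell marker tested was not called. In RNA from whole tissue, more cells of a type and more RNA per cell cannot be told apart. The part of these cells in the changes of the receptors was not tested.

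**Figure D3:**
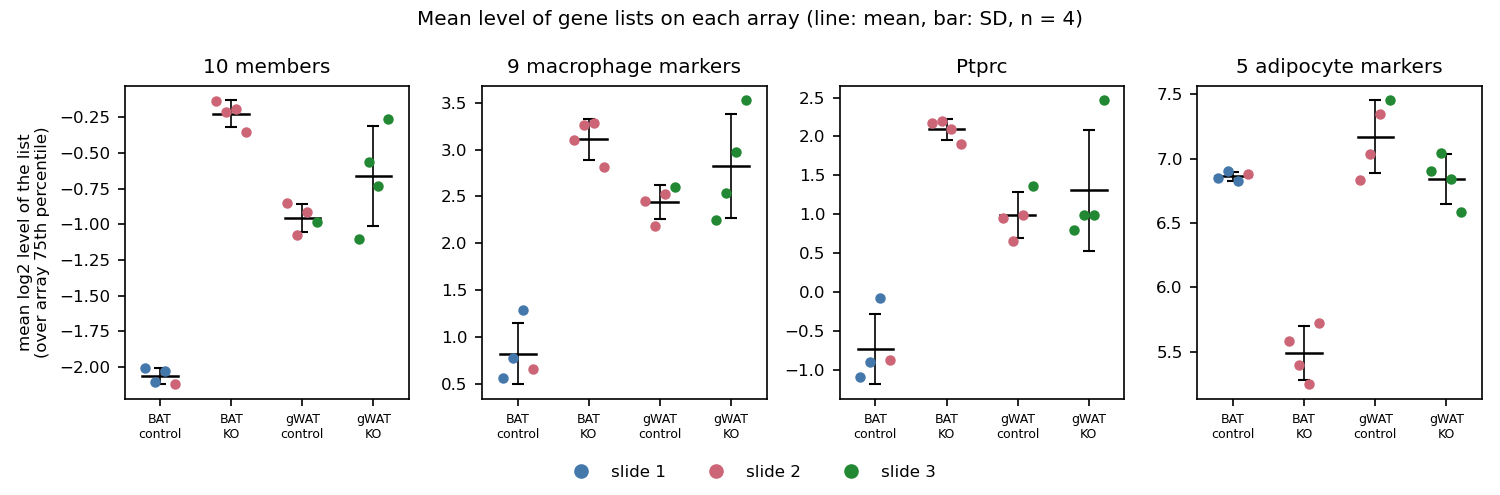
Each point is the mean log2 level of a gene list on one array (over the array's 75th percentile), with group mean and SD; colours give the slide. Every BAT knockout array (-0.35 to -0.13) lies above every BAT control array for the members, and macrophage markers and Ptprc are higher and adipocyte markers lower on the same knockout arrays.

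In the reported scaling, the rest of the pathway in BAT moved in both directions. Of 69 further genes sorted by role, 61 were tested, 30 rose and 9 fell, with a median log2 change of 0.37. Over all genes tested in BAT, 61.4% were called in either direction and 27.5% higher. These shares are the measure for this count and for the counts by role below. They depended on the scaling. Relative to spike-in spots, the median change over all genes in BAT was 0.46, against -0.080 here, and 79.7% of calls were higher. Relative to Actb and Rplp0 that median was -0.67, and 17.7% of calls were higher. The falls of Tlr9, Irak1 and Irf3 below are therefore those of the reported scaling, and their size or direction rests on it. Genes that passed the detection filter only through the knockout arrays were among those that rose, including Tlr11, Tlr12, Pik3ap1, Ikbke, Il10 and Ccl3. For such genes a fall could hardly have been called, so these counts are no test of direction. Among other receptors, 3 of 5 rose and 1 fell. Tlr11, which binds profilin of parasites, was not well above background in controls. It was at least 1.37-fold higher in knockouts (adjusted p = 9.01e-04 for the fitted change, not for this bound). Tlr5, the flagellin receptor, rose by 1.13 ± 0.23 (0.54 and not called when scaled to Actb and Rplp0, adjusted p = 0.0889), and Tlr9, the receptor of CpG DNA, fell by 0.54.

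Of 7 co-receptors and chaperones, 4 rose and 1 fell. Ly86, the partner of Cd180, rose by 2.78 ± 0.22 (6.86-fold) and Lbp, the lipopolysaccharide-binding protein, by 2.15 ± 0.14 (4.43-fold). Unc93b1, which escorts endosomal receptors, rose by 1.59 ± 0.15. Ly96, the MD-2 subunit of the Tlr4 complex, was at -0.027 ± 0.11 (adjusted p = 0.839), so that the Tlr4 transcript and that of its partner differed in outcome, although their difference was not tested.

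Of 4 other adaptors tested, 2 rose. Pik3ap1, an adaptor to phosphoinositide 3-kinase, was at least 2.24-fold higher (adjusted p = 2.66e-04 for the fitted change, not for this bound). Tirap, which bridges Tlr2 and Tlr4 to Myd88, rose by 0.43 ± 0.12, a direction that turned to -0.16 when scaled to Actb and Rplp0. Ticam1, the adaptor of Tlr3 signalling known as TRIF, was at -0.36 ± 0.17 (adjusted p = 0.0905).

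Among 16 kinases and ligases, 5 rose and 4 fell, with a median of 0.033. Map3k8, a kinase that relays receptor signals to ERK, rose by 2.51 ± 0.36 (5.71-fold), and Ikbke, a kinase of interferon regulatory factors, was at least 1.72-fold higher. The general components Irak4 (-0.051) and Traf6 (5.6e-04) did not pass, and Irak1 fell by 0.65.

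Of 7 transcription factors tested, 4 rose and 1 fell. Irf5, which relays Toll-like receptor signals to cytokine genes, rose by 2.41 ± 0.16 (5.32-fold) and Irf7, a driver of interferon genes, by 1.51 ± 0.22 (2.85-fold), while Irf3 fell by 0.52. Of 12 inhibitors, 4 rose and 2 fell, led by Socs1 (1.84 ± 0.25), a brake on cytokine signalling, and Nfkbie (1.66 ± 0.22), an inhibitor of NF-kB.

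Of 16 target genes, 10 were tested and 8 rose, with a median log2 change of 3.36. Il10, Ccl3 and Il1b entered the test only through the knockout arrays, so this count is no test of direction. Cxcl10, an interferon-induced chemokine, rose by 3.98 ± 0.75 (15.7-fold, adjusted p = 0.00179). Il10, an anti-inflammatory cytokine, was at least 2.17-fold higher (adjusted p = 2.73e-05 for the fitted change, not for this bound). Tnf (-0.64, adjusted p = 0.0548) and Il1b (1.78, adjusted p = 0.118) did not pass. Ifnb1, Il6, Il12b, Cxcl2, Ptgs2 and Acod1 were too dim to test in any of the comparisons.

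**Figure D4:**
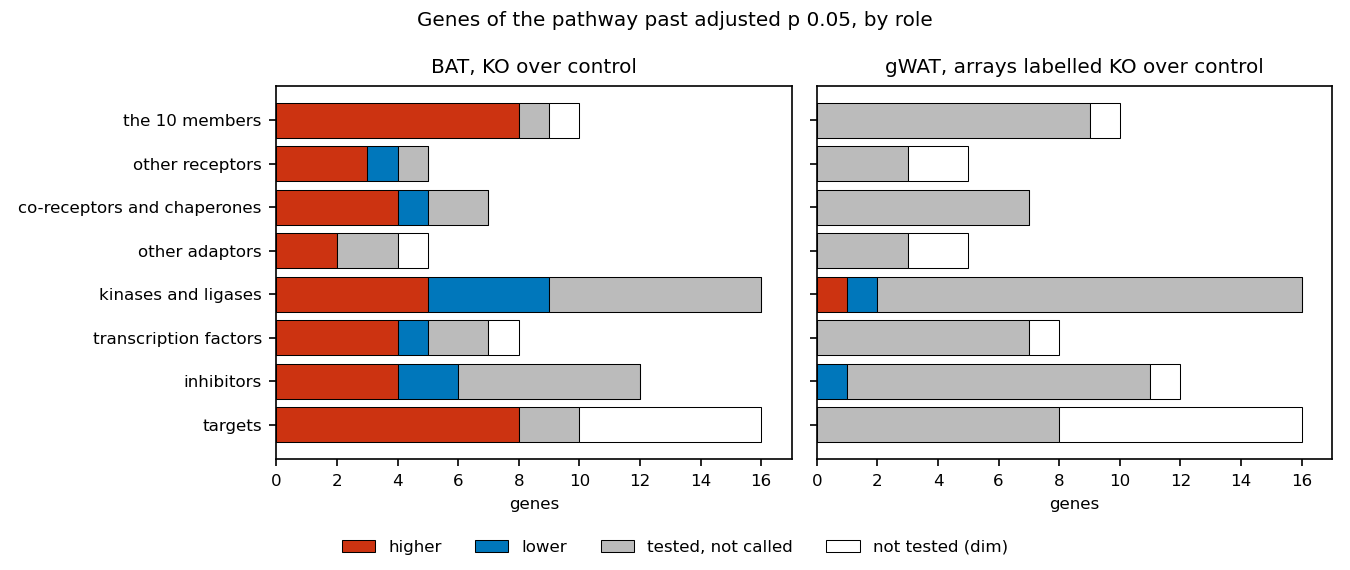
Bars count the genes of each role list that were higher, lower, tested and not called, or too dim to test, in BAT (left) and gWAT (right); the top bar holds the 10 members. In BAT the members and the targets have 8 genes each called higher and 0 lower, while in gWAT 3 genes in all pass, none of them a member.

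In gWAT, 0 of the 9 tested members were called by limma between arrays labelled Adipo-Pgam1 KO and controls, where 17.8% of 14122 genes tested were called. At an unadjusted p under 0.05 there were 3 members (Tlr13, Tlr4 and Tlr3), as for 34.7% of all genes tested, and the methods' t-test gave the same 3 genes before adjustment and 0 after it. The median log2 change of the members was 0.16, against 0.047 over all genes. The groups did not overlap for 2 members, Tlr13 and Tlr4, as for 24.2% of all genes tested.

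Tlr13 read 0.10, 0.28, 0.18 and 0.29 on the gWAT control arrays and 0.89, 0.67, 1.29 and 2.79 on arrays labelled Adipo-Pgam1 KO. All 4 of the latter were higher, array 4 by far the most, and the difference was 1.198 ± 0.41 (2.29-fold, adjusted p = 0.0741). Without that array it was 0.74 and passed (adjusted p = 0.0209), and the dimmer probe with all arrays gave 1.56 ± 0.35 (adjusted p = 0.0182). With slide as a block it was 1.12 (adjusted p = 0.443).

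Tlr4 read -0.19, -0.033, 0.011 and -0.092 in gWAT controls and -0.62, -0.45, -0.40 and -0.21 on the labelled knockout arrays, a difference of -0.34 ± 0.13 (adjusted p = 0.0914). Scaled to the spike-in spots, the difference was 0.099, so that its direction rested on the scaling. Without labelled knockout array 4 it was -0.42 and passed (adjusted p = 0.0419). The dimmer Tlr4 probe spread widely over the controls, from -3.40 to -0.053, and differed by -1.98 ± 0.65 (adjusted p = 0.0601).

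Tlr3 read -2.60, -3.19, -2.49 and -2.54 in gWAT controls and -3.21, -2.99, -3.24 and -3.22 on labelled knockout arrays. The groups overlapped through control array 2, and the difference was -0.46 ± 0.17 (adjusted p = 0.101). Without that control it was -0.62 (adjusted p = 0.0343).

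Tlr8 was not well above background on any gWAT control array (-5.17 to -4.77) and was so on 1 labelled knockout array, replicate 2, at -0.099. The other 3 read -5.89, -4.62 and -3.87, so the single high reading had no second array beside it. Tlr3 was also highest of its group on that array, at -2.99.

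The other members did not pass in gWAT. Tlr1 (0.46 ± 0.31), Tlr7 (0.47 ± 0.25), Tlr6 (0.22 ± 0.31) and Tlr2 (0.16 ± 0.38) were on the higher side and Cd14 (-0.22 ± 0.24, but 0.22 with spike-in scaling) on the lower, with adjusted p from 0.215 to 0.804. Myd88 differed by 0.020 ± 0.11 (95% interval -0.23 to 0.27). Labelled knockout array 4 was the highest of its group for Tlr1 (-1.13), Tlr4 (-0.21), Tlr6 (-1.54), Tlr7 (0.60), Tlr13 (2.79) and Cd14 (2.19).

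That array was also the highest of the 16 for the mean of the macrophage markers, at 3.53 against 2.25 to 2.97 on the other labelled knockout arrays, and for Ptprc, at 2.47 against 0.79 to 0.996. Over the list, 1 of 9 macrophage markers rose in gWAT (Cd68, 1.48 ± 0.40), and the summed level was 70.9 to 100 times the 75th percentile in controls and 72.9 to 190 times on labelled knockout arrays. Without array 4 the count of members called was 2 (Tlr13 and Tlr4), and the part of the macrophage content in the values of that array was not tested.

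Of 55 further pathway genes tested in gWAT, 1 rose and 2 fell, where 17.8% of all genes tested were called. Ikbkg, the regulatory subunit of the IkB kinase known as NEMO, rose by 1.43 ± 0.30 (2.70-fold, adjusted p = 0.0169), Ikbkb, a catalytic subunit of that kinase, fell by 0.44 (adjusted p = 0.0410) and Cyld, a deubiquitinase, fell by 0.43 (adjusted p = 0.0363). None of the 3 passed with slide as a block (adjusted p = 0.286, 0.227 and 0.221). Both falls read about 0 when scaled to spike-in spots (0.0021 and 0.013). Of the 8 targets tested 0 were called, with Cxcl10 at 1.07 ± 0.58 and Saa3, an acute-phase protein, at 1.80 ± 1.1.

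Whether the genotype difference itself differed between the depots was tested over all 16 arrays. The change in gWAT minus that in BAT was negative for all 9 tested members, and 7 of the 9 passed, all in that direction, where 48.3% of 14792 genes passed in either direction and 21% in this direction. The fitted contrasts of -3.22 ± 0.42 for Tlr6 (adjusted p = 4.62e-05) and -2.86 ± 0.50 for Tlr1 (adjusted p = 3.57e-04) rest on BAT control signals at or near background, and were -1.23 and -1.57 with normexp background correction. The contrasts were -2.30 ± 0.21 for Tlr4 (adjusted p = 5.66e-06) and -1.96 ± 0.50 for Tlr2 (adjusted p = 0.00486). They were -1.66 ± 0.50 for Tlr13 (adjusted p = 0.0129), -1.44 ± 0.34 for Cd14 (adjusted p = 0.00332) and -1.10 ± 0.22 for Tlr3 (adjusted p = 0.00116). Tlr7 (-0.30 ± 0.34, adjusted p = 0.496) and Myd88 (-0.070 ± 0.16, adjusted p = 0.741) did not pass and turned to 0.23 and 0.46 when scaled to Actb and Rplp0, although the second Tlr7 probe did, at -1.99 ± 0.52 (adjusted p = 0.00558).

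With slide as a block, 5 of the members passed, without Tlr2 (adjusted p = 0.115) and Tlr13 (adjusted p = 0.195). Scaled to Actb and Rplp0, 4 passed, without Tlr3, Tlr13 and Cd14. In the reported setting, 48.3% of all genes tested passed in either direction and 21% with a negative contrast. Of 61 further pathway genes tested there, 22 passed with a smaller or more negative change in gWAT than in BAT and 9 with the reverse. Ly86 (-2.41 ± 0.39), Pik3ap1 (-2.32 ± 0.47), Irf7 (-1.98 ± 0.33) and Cxcl10 (-2.91 ± 1.0) were among the former, and Ticam1 (0.74 ± 0.21) was among the latter. Cxcl10 lost its call when any 1 of 8 of the 16 arrays was left out, and both it (adjusted p = 0.611) and Ticam1 (adjusted p = 0.224) lost it with slide as a block. Of the 9 macrophage markers, 7 passed in the same direction as the members.

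**Figure D5:**
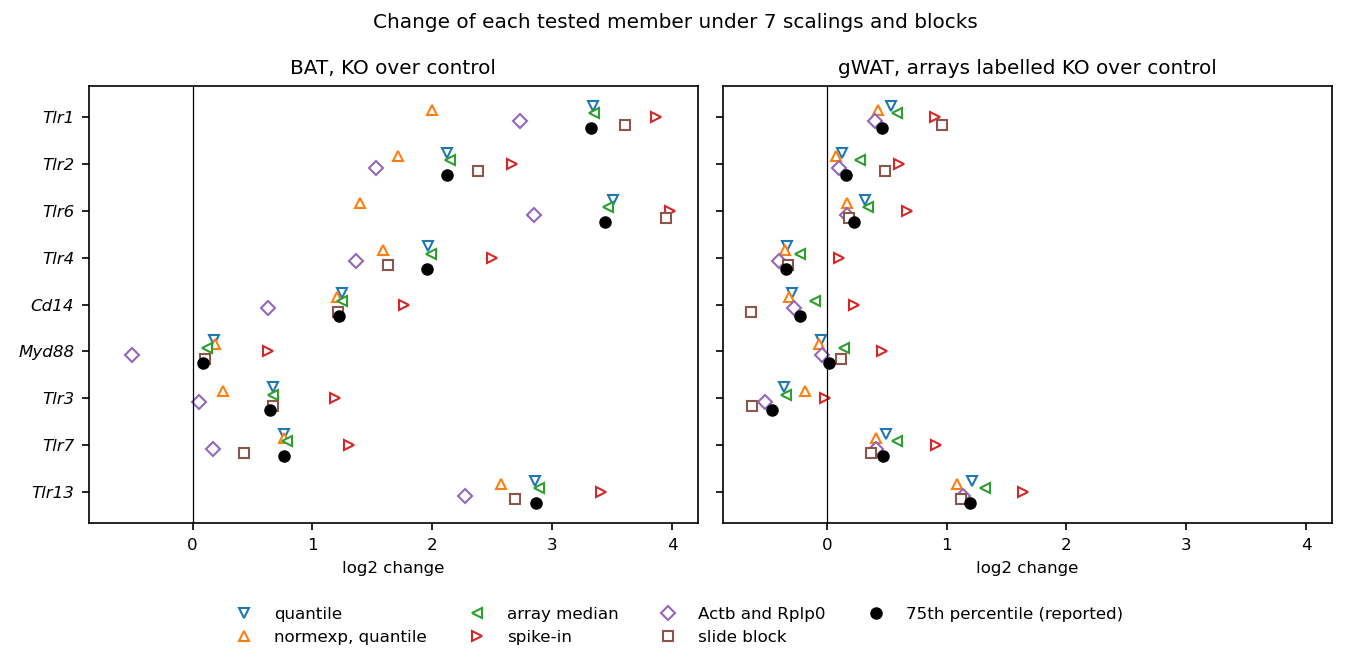
Points give the log2 change of each tested member in BAT and gWAT under 7 scalings, background corrections or blocks, with the reported setting in black. In BAT the points of all members shown except Myd88 lie right of 0 under each of them, and Myd88 crosses 0. Tlr3 (0.053) and Tlr7 (0.17) come close to 0 when scaled to Actb and Rplp0. In gWAT Tlr4, Cd14 and Myd88 cross 0.

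The depots also differed in control mice. Of the 9 tested members, 7 were higher in gWAT than in BAT and 1 was lower, where 64.7% of 14276 genes were called in either direction and 29.3% were higher and 35.4% lower in gWAT. The groups did not overlap for 8 of the 9, as for 60.8% of all genes tested. Tlr1, Tlr3 and Tlr6 passed the detection filter here only through the gWAT arrays, so that a lower level in gWAT could hardly have been called for them. Tlr6 was at least 2.66-fold higher in gWAT (adjusted p = 7.78e-06 for the fitted difference, not for this bound). Tlr2 was higher by 1.78 ± 0.43, Tlr4 by 1.60 ± 0.18, Tlr1 by 1.51 ± 0.32, Cd14 by 1.31 ± 0.19, Tlr13 by 1.06 ± 0.18 and Tlr3 by 0.98 ± 0.17, with adjusted p from 8.79e-05 to 0.00588. For Tlr1, above background on 1 of the 4 BAT control arrays, the second probe gave 0.93, with overlapping groups, and did not pass (adjusted p = 0.0611). With slide as a block, Tlr2 (2.15, adjusted p = 0.0601) and Tlr13 (0.87, adjusted p = 0.0577) did not pass. Of the 9 macrophage markers, 8 were higher in gWAT controls, and their part in these differences was not tested.

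Myd88 went the other way, with 1.504 to 1.65 in gWAT controls and 2.07 to 2.47 in BAT controls, a difference of -0.71 ± 0.12 (adjusted p = 7.68e-04). Scaled to spike-in spots it was -0.48 and did not pass (adjusted p = 0.0504). Tlr7 was at -0.37 ± 0.21 (adjusted p = 0.154) by the brightest probe and at 1.60 ± 0.17 (adjusted p = 5.20e-05) by the second, so that the probes disagreed in sign. Of 54 further pathway genes tested, 20 were higher in gWAT and 11 lower, against 29.3% and 35.4% of all genes tested. Saa3 (5.74 ± 1.2) and Lbp (5.44 ± 0.34) were among the former, and Ticam1 (-1.48 ± 0.18) and Tnf (-1.21 ± 0.36) were among the latter. Pik3ap1 and Ikbke, counted as higher, passed the detection filter here only through the gWAT arrays. Tnf did not pass with spike-in scaling (-0.98, adjusted p = 0.103), with the mean over probes (-0.36, adjusted p = 0.569) or with a replicate block (adjusted p = 0.0533).

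Placed in order, the 4 groups were arranged alike for Tlr1, Tlr2, Tlr6 and Tlr13, with BAT knockout highest by mean, then gWAT arrays labelled knockout, gWAT controls and BAT controls. BAT controls did not overlap the next group for any of these. The middle neighbours overlapped for Tlr1, Tlr2 and Tlr6 but not for Tlr13, and the upper 2 groups overlapped for Tlr2, Tlr6 and Tlr13 but not for Tlr1. For Tlr4 none of the neighbours overlapped, in the order BAT knockout (0.29), gWAT control (-0.075), gWAT labelled knockout (-0.42) and BAT control (-1.67). Cd14 and Tlr3 were highest by mean in gWAT controls (2.04 and -2.71), and there the upper 3 groups overlapped as neighbours. Myd88 was higher in both BAT groups (2.31 and 2.40) than in both gWAT groups (1.60 and 1.62), with overlap only within a depot.

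The genes whose levels followed the members most closely over the 16 arrays were listed by Pearson's r among 12357 genes well above background on all arrays, for the 6 members that were so themselves. Tlr13 was nearest to Hk3, a hexokinase of leukocytes (r = 0.9746), and Mpeg1, a pore-forming protein of macrophages (r = 0.973). Tlr4 was nearest to Smc4, a condensin subunit (r = 0.971), Tlr2 to Nfkbie (r = 0.957), Cd14 to Rai14 (r = 0.929), Tlr7 to Parp2 (r = 0.932) and Myd88 to Flcn (r = 0.960). These values describe arrays that share group, slide and tissue, and after subtraction of the group means r was 0.932 for Tlr13 with Hk3 and 0.632 for Myd88 with Flcn. For Tlr7 the likeness is that of its brightest probe. The second Tlr7 probe, which gave other changes in BAT and between depots, was not compared in this way.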

How the data were processed

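The authors hybridised RNA to one-colour Agilent arrays and read them with Agilent Feature Extraction 10.7.1.1. The deposited intensity values were background-subtracted processed signals with detection flags, and the normalized signal table deposited beside them served only as an alternative. Processed signals were divided by each array's 75th percentile and put on the log2 scale. Probes were named through RefSeq accessions, the brightest probe stood for a gene, and genes with an irregular spot there on any array were left out. limma 3.58.1 in R 4.3.3 was fitted within each comparison, with Benjamini-Hochberg adjustment and a threshold of 0.05, and was tested on simulated data. Groups came from the sample titles. The p-values set a group difference against the spread between arrays within groups. The reported fits had no term for slide, so a difference between slides would enter the group difference. The members and lists were chosen with earlier results of these data known. The text names the members, Pgam1, markers, and pathway genes led by up to 2 per role with the largest change past the threshold; others were named after their values were seen. Scalings, background correction, filter, probe choice, slide and replicate blocks and left-out arrays were tried as alternatives. The number of arrays limits the precision.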

Additional observations from a re-analysis of the deposited data

Results flagged for a closer look

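Of 40 groups of 4 arrays, 3 held a reading far from the others by Dixon's criterion, and chance gives about 1 in 20. Tlr1 read 0.078 on BAT knockout array 4. Tlr3 read -3.19 on gWAT control array 2 and -2.99 on gWAT array 2 labelled Adipo-Pgam1 KO.

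The genotype difference in gWAT minus that in BAT passed the test for 7 members. The fitted values of -3.22 for Tlr6 and -2.86 for Tlr1 rest on BAT control signals mostly not above background and are no measured sizes. The contrast was -2.30 for Tlr4, -1.96 for Tlr2, -1.66 for Tlr13, -1.44 for Cd14 and -1.10 for Tlr3.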

How the results depend on the processing

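In BAT, 8 members were called, 5 within the slide that holds both genotypes, and 8 whichever array was left out. In gWAT, 0 were called, 1 with normexp correction, 1 with spike-in scaling, 2 with the mean over probes, 3 with the methods' t-test unadjusted, 0 to 2 with 1 array left out and 2 without replicate 4 of the knockout groups. The contrast between depots called 7, and 4 when scaled to Actb and Rplp0. Signs turned for small differences. Scaled to Actb and Rplp0, Myd88 was -0.50 and Tirap -0.16 in BAT, Myd88 -0.038 in gWAT, and the contrast 0.46 for Myd88 and 0.23 for Tlr7. In gWAT Myd88 was -0.049 with quantile normalization, -0.065 with normexp, and -0.016 to 0.051 with 1 array left out (-0.012 without control 4, -0.016 without knockout 1, -0.0067 without knockout 4). With spike-in scaling in gWAT, Tlr4 was 0.099, Cd14 0.22, Ikbkb 0.0021 and Cyld 0.013. With 1 array left out, gWAT values ran from -0.096 (without control 2) to 0.57 for Tlr2 and from -0.039 (without knockout 4) to 0.45 for Tlr6. The Myd88 contrast was 0.024 centred on the median, 0.015 with slide as a block, and -0.13 to 0.0076 with 1 array left out (0.0076 without BAT control 3, 0.0073 without BAT knockout 4). Tlr7 between depots was 0.61 with the mean over probes and 1.60 with the second probe. The cause was not tested.

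Over all genes in gWAT, 2517 were called, against 5078 with spike-in scaling, 1385 centred on the median, 1134 without a filter, 184 with slide as a block, 121 within the shared slide, 1614 with the methods' t-test (4662 unadjusted) and 1140 to 3225 with 1 array left out. The contrast called 7145 genes, and 3258 with slide as a block. The share of calls that were higher was 44.8% in BAT (79.7% spike-in, 17.7% Actb and Rplp0), 55.9% in gWAT (95.3% spike-in, 71.0% median), 56.6% for the contrast (83.7% Actb and Rplp0) and 45.3% between depots (58.1% spike-in, 29.2% Actb and Rplp0).

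Whether equal replicate numbers pair the samples was not settled. Correlations of deviations ran from -0.14 to 0.43 within gWAT, 0.00040 to 0.22 within BAT, -0.073 to 0.22 between depots in controls and -0.19 to 0.29 in knockouts, and 3 of the 4 pairs between depots were over 0.1 in each genotype. A replicate block changed no member's call, and in gWAT it left 1085 genes called and Pgam1 at 0.95 (adjusted p = 0.0515).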
